A study of Dicentrarchus labrax with 35 samples.

Results

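The effect of the food supplied in the later of 2 periods of growth, which spans sex differentiation, was examined in the testes of 20 juvenile European sea bass (Dicentrarchus labrax), which are 20 of the 35 fish of the series. The 10 later fast fish comprised groups FF and SF, and the 10 later slow fish comprised groups FS and SS, with 5 fish in each group. Per the methods of the study, all fish were fed alike to appetite before the groups were divided, and fast and slow growers were natural extremes of size. FF fish grew fast from the start and were fed generously in the later period. SF fish grew slowly at first and were then fed more so that their growth accelerated. FS fish grew fast at first and were then put on restricted food so that their growth decelerated, and SS fish grew slowly throughout, on restricted food in the later period. The first letter of a group therefore gives initial growth and the second gives later growth, and initial growth was a factor in the main fit of later food supply. The labels place these fish at 332 days post fertilization (T2). Gonads of 15 fish sampled before the groups were divided, at 133 days (T1), gave a reference level. They also entered the normalization and some alternative fits.

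In this species food and growth are tied to reproduction through the pituitary, whose growth hormone drives the production of insulin-like growth factors and whose gonadotropins drive the gonad. A juvenile testis holds germ cells enclosed in cysts of Sertoli cells, with steroid-producing Leydig cells between them, and the methods of the study state that these testes contained no spermatozoa. The question behind the comparison was whether the food supply of the later period left a mark on the testis transcriptome whatever the earlier growth of the fish. Whole testes were measured, so that fewer cells of a type and less RNA per cell cannot be told apart. Each of the 4 groups was reared in 1 tank, and tank and feeding regime cannot be told apart either.

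Each testis was hybridised to an array of its own with 24200 sea bass probes against 11705 target sequences, of which 3305 were assembled contigs and 8400 single sequence reads. The files give no gene name for any probe, and none of the probe or target names was found in the reference table of 30274 RefSeq genes. Probes are therefore described by identifier, and neither the tissue nor other cell types could be checked against marker genes. The percentage of spots that lay well above background had a median of 78.5 in FF, 84.7 in SF, 76.4 in FS and 80.7 in SS, and it did not differ detectably by later supply (difference of 1.77 percentage points, exact permutation p = 0.44, two-sided). The 20 arrays lay on 6 slides. No slide held FF together with FS arrays, and a single slide held SF4 and SF5 together with SS1 and SS2. In initially fast fish, slide and later supply can therefore not be told apart.

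Arrays FS1, FS2 and FS4 stood apart from all the others. On the first principal component of the 20 arrays, with 51.7% of the variation, they scored 110.3, 125.9 and 127.1, against -34.3 to -1.4 for the remaining 17 arrays. FS3, which lay on the same slide, scored -24.4, and FS5, on another slide, scored -30.9. FS1 to FS4 had 114 to 213 flagged spots, against 15 to 122 on the other 16 arrays. The part of this in the results was not tested, and calls, named probes, shares of the variation and distances are given with and without them.

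No probe was called for later food supply in the main fit at the thresholds of the methods, which ask for a change of 1.5-fold or more with an adjusted p under 0.01. With limma on 20 arrays and initial growth as a factor, 0 of 24200 probes (0%) passed, although 5652 probes (23.4%) had an unadjusted p under 0.05, 3240 of them (13.4%) higher in the later fast fish. The smallest adjusted p was 0.0106. Simulated data took the measured spread within groups, but held no effect of initial growth, no interaction and no shift shared by FS1, FS2 and FS4. There this fit recovered 92.5% of probes changed 3-fold, 84% of those changed 2-fold and 27.5% of those changed 1.5-fold. These shares do not give the recovery in the measured fish. The measured differences reached 1.5-fold at 1707 probes (7.05%), 922 of them higher in later fast fish, with a median standard error of 0.13 on the log2 scale. Without FS1, FS2 and FS4 they did so at 504 probes (2.08%), of which 104 were higher, so that both the number and the balance of directions rested on these fish. When the 4 group means were fitted in place of the additive model, 6 probes (0.0248%) passed, 1 (0.00413%) higher and 5 (0.0207%) lower in later fast fish, and 215 (0.888%) passed the looser thresholds given next, 119 (0.492%) higher and 96 (0.397%) lower.

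At the looser thresholds of 1.2-fold and an adjusted p under 0.05, 75 probes (0.31%) of 65 target sequences passed, with 50 (0.207%) higher and 25 (0.103%) lower in later fast fish. Their adjusted p lay between 0.0106 and 0.0499 (limma), and their median change was 0.60 on the log2 scale, with a range of 0.30 to 1.13. The share of higher probes was 66.7%, against 80.6% of 366 probes when control spots were kept in the normalization, 80.1% of 377 in the matrix of the authors and 56% of 100 with no normexp offset. Among probes well above background in all 4 groups, 4 passed, none of them higher, although 67 of the 75 were tested there. Without FS1, FS2 and FS4, none of the 75 passed (smallest adjusted p 0.136), and 3426 probes (14.2%) had an unadjusted p under 0.05. Single fish also moved the count. It was 1347 without FS3, 1256 without FS5, 564 without SS1, 180 without SF1, 177 without FF3 and 47 without FF1, and it was 1 or 2 when any of the other 14 fish was left out. No probe passed with the slide as a random block either (smallest adjusted p 0.135).

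The direction of the 75 probes varied less than their calls. All 75 had the same sign in FF minus FS and in SF minus SS, with a median size of 0.59 and 0.55 on the log2 scale. All 75 also kept their sign without FS1, FS2 and FS4, at a median of 0.48, and within the slide that held SF4, SF5, SS1 and SS2, at a median of 0.56. On the slide that held SF1, SF2 and SF3 with FS5, where initial growth differed too, 68 of the 75 had that sign and the median was 0.28. Of the initially fast fish alone, the difference between FF and the pair FS3 and FS5 had a median of 0.30 for these probes. The fit without FS1, FS2 and FS4 leaned on the initially slow fish, of which none was left out. Since the probes were chosen by the contrast of the same fish, these counts are a description and support nothing.

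Each fish was then scored by the mean level of these probes, relative to the mean of the 20 fish. For the 50 higher probes the score was 0.16 to 0.47 in FF and 0.10 to 0.42 in SF, against -0.61 to 0.01 in FS and -0.34 to -0.12 in SS. Later fast and later slow fish did not overlap here, which the choice of the probes by this difference in the same fish favours. FS3 (0.01) and FS5 (-0.06) lay nearest to the later fast fish. For the 25 lower probes the score was -0.49 to -0.34 in FF and -0.32 to -0.08 in SF, against -0.11 to 0.41 in FS and 0.08 to 0.74 in SS, and FS3 (-0.11) fell below SF1 (-0.08).

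**Figure D1:**
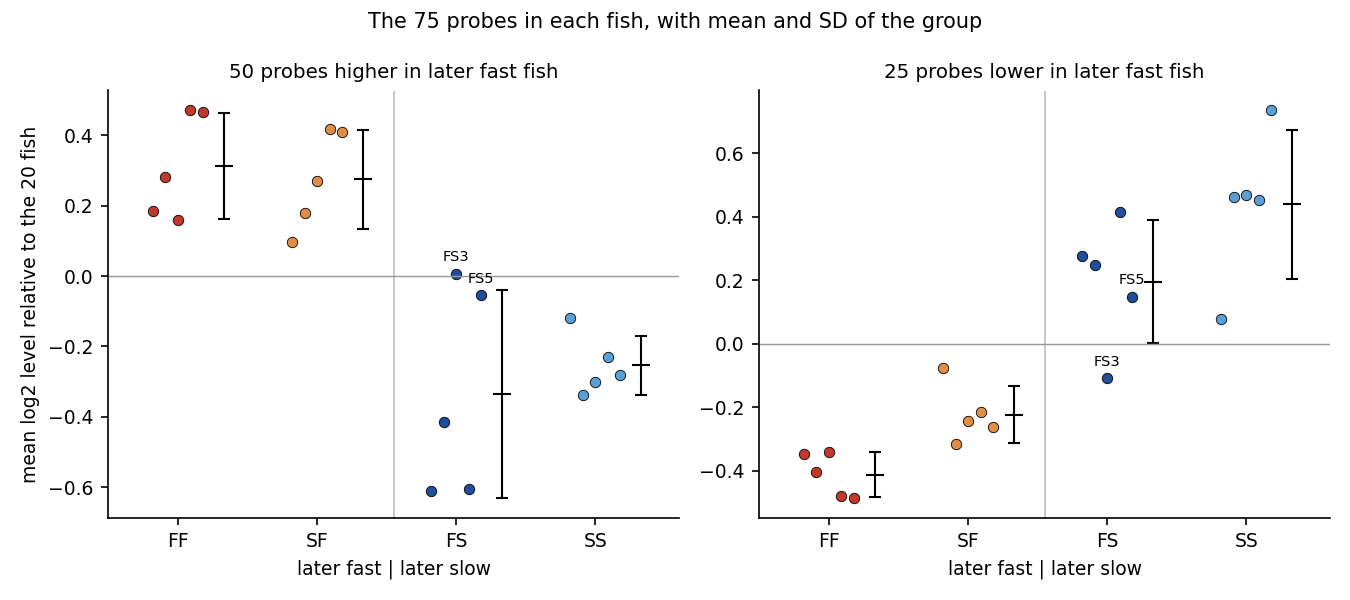
Mean log2 level of the 50 probes higher (left) and the 25 probes lower (right) in later fast fish, relative to the mean of the 20 fish, for each fish (points), with the mean and SD of each group of 5 (bars). FF and SF stand to the left of FS and SS. FS3 and FS5 lie nearer to the later fast fish than FS1, FS2 and FS4 do in both sets, and the probes were chosen by this difference.

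The most stable of the 75 when single fish were left out was CUST_15956_PI416070213, which binds the single read cDN29P0002K12.F.ab1 and was well above background in all 20 fish. Its log2 level was 9.88, 10.11, 10.03, 9.998 and 9.77 in FF, against 10.88, 10.90, 10.19, 10.91 and 10.75 in FS. It was 10.38, 9.88, 10.19, 10.09 and 10.19 in SF, against 10.51, 11.37, 10.93, 10.94 and 11.18 in SS. Every FF fish lay below every FS fish and every SF fish below every SS fish, although FS3 (10.19) overlapped the SF fish. The change was -0.81 ± 0.11 (SE; adjusted p = 0.0106, limma), or 1.75-fold lower in later fast fish. It was -0.77 in initially fast and -0.84 in initially slow fish, and -0.72 without FS1, FS2 and FS4 (adjusted p = 0.136, limma). That fit leaned on the initially slow fish, and FS3 and FS5 were at 10.19 and 10.75, against 9.77 to 10.11 in FF. The change was -0.80 within the slide of SF4, SF5, SS1 and SS2 and -0.60 on that of SF1 to SF3 and FS5. When each fish was left out in turn it stayed between -0.87 and -0.76 with an adjusted p between 0.000593 and 0.037 (limma), and it was the only one of the 75 past the looser thresholds in all 20 of these fits. Its adjusted p was the smallest in the fit of all 20 fish, and these fits shared nearly all of them, so this stability is a description. With the processed signal, or the slide as a random or fixed block, it did not pass. No probe had an adjusted p below 0.0766, 0.135 and 0.098 there (limma). With the 4 group means fitted, its adjusted p was 0.00388.

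The same read was covered by 2 further probes. One of them was also among the 75, at -0.79 ± 0.15 (SE; adjusted p = 0.0437, limma) and at -0.54 without FS1, FS2 and FS4, with levels of 8.57 to 9.25 (median 8.86) in later fast fish and 9.13 to 10.35 (median 9.66) in later slow fish. The other gave -0.44 ± 0.26 (SE; adjusted p = 0.308, limma), with 8.11 to 8.78 (median 8.60) in later fast fish and 7.92 to 10.49 (median 8.59) in later slow fish, and here FS1, FS2 and FS4 alone, at up to 10.49, stood above all other fish. Without them the change was 0.11, and SF minus SS was 0.20, both opposite in sign. The probes of this read thus did not move equally.

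CUST_8543_PI416070213 (single read cDN22P0002H07.F.ab1) had the largest change of the 4 probes named for later supply. Its log2 level was 8.17, 8.03, 7.98, 7.92 and 8.06 in FF, against 9.13, 9.19, 8.16, 9.18 and 8.46 in FS. In the initially slow fish it was 8.23, 7.98, 8.44, 8.24 and 8.07 in SF, against 8.79, 9.96, 10.40, 9.37 and 9.83 in SS. The later slow fish were higher but spread more widely, with an SD of 0.09 in FF and 0.18 in SF, against 0.48 in FS and 0.61 in SS, and FS3 (8.16) lay within the later fast fish. The change was -1.13 ± 0.19 (SE; adjusted p = 0.0437, limma), which is 2.19-fold lower in later fast fish. It was -0.79 in initially fast and -1.48 in initially slow fish, and the difference between these did not pass the test (0.69 ± 0.35, SE; adjusted p = 0.249, limma). The change was -1.04 without FS1, FS2 and FS4, and -0.24 on the slide of SF1 to SF3 and FS5. The first of these fits leaned on SF minus SS (-1.48). FS3 and FS5 were at 8.16 and 8.46, against 7.92 to 8.17 in FF. The 2 further probes of this read changed by -0.32 and -0.17, neither past the looser thresholds, and by 0.09 and -0.10 without FS1, FS2 and FS4.

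Among the probes that were higher, CUST_15299_PI416070213 (single read cDN28P0005E18.F.ab1) had log2 levels of 9.67, 9.82, 9.71, 10.19 and 9.87 in FF, against 9.26, 9.15, 9.49, 8.63 and 9.51 in FS. The levels were 9.49, 10.21, 10.03, 10 and 9.89 in SF, against 9.27, 9.26, 9.41, 9.38 and 9.14 in SS. Later fast fish lay above later slow fish within each kind of initial growth, and the lowest SF fish (9.49) lay level with the highest FS fish (9.49 and 9.51). The change was 0.64 ± 0.11 (SE; adjusted p = 0.0437, limma), or 1.56-fold, with 0.65 in initially fast and 0.63 in initially slow fish, and 0.53 without FS1, FS2 and FS4. That last fit leaned on the initially slow fish, and FS3 and FS5 were at 9.49 and 9.51, against 9.67 to 10.19 in FF. Both further probes of this read were also among the 75, at 0.34 ± 0.07 and 0.43 ± 0.08 (SE; adjusted p = 0.0464 and 0.0437, limma), and at 0.26 and 0.40 without those arrays. On the second of these the 10 later fast fish, at 8.38 to 8.91, all lay above the 10 later slow fish, at 7.93 to 8.36. On CUST_15299_PI416070213, 14 of the 15 T1 fish lay above every T2 fish, with a T1 mean of 11.35 and a lowest T1 level of 10.11.

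CUST_6764_PI415922062 (contig SeabassC-CL4483Contig1) had log2 levels of 9.41, 9.18, 9.0, 9.60 and 9.43 in FF, against 8.31, 8.70, 9.05, 8.89 and 9.002 in FS. The levels were 9.20, 9.28, 8.91, 9.05 and 9.002 in SF, against 8.72, 8.23, 8.55, 8.28 and 8.44 in SS. SF and SS did not overlap, while FS3 and FS5 reached the level of FF3. The change was 0.59 ± 0.10 (SE; adjusted p = 0.0437, limma), or 1.5-fold, with 0.53 in initially fast and 0.64 in initially slow fish, 0.52 without FS1, FS2 and FS4, and 0.13 on the slide of SF1 to SF3 and FS5. Without FS1, FS2 and FS4 the fit leaned on the initially slow fish. FS3 and FS5 were at 9.05 and 9.002, against 9.0 to 9.60 in FF. This contig had no further probe. None of the 4 named probes passed the thresholds of the methods in the additive fit.

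**Figure D2:**
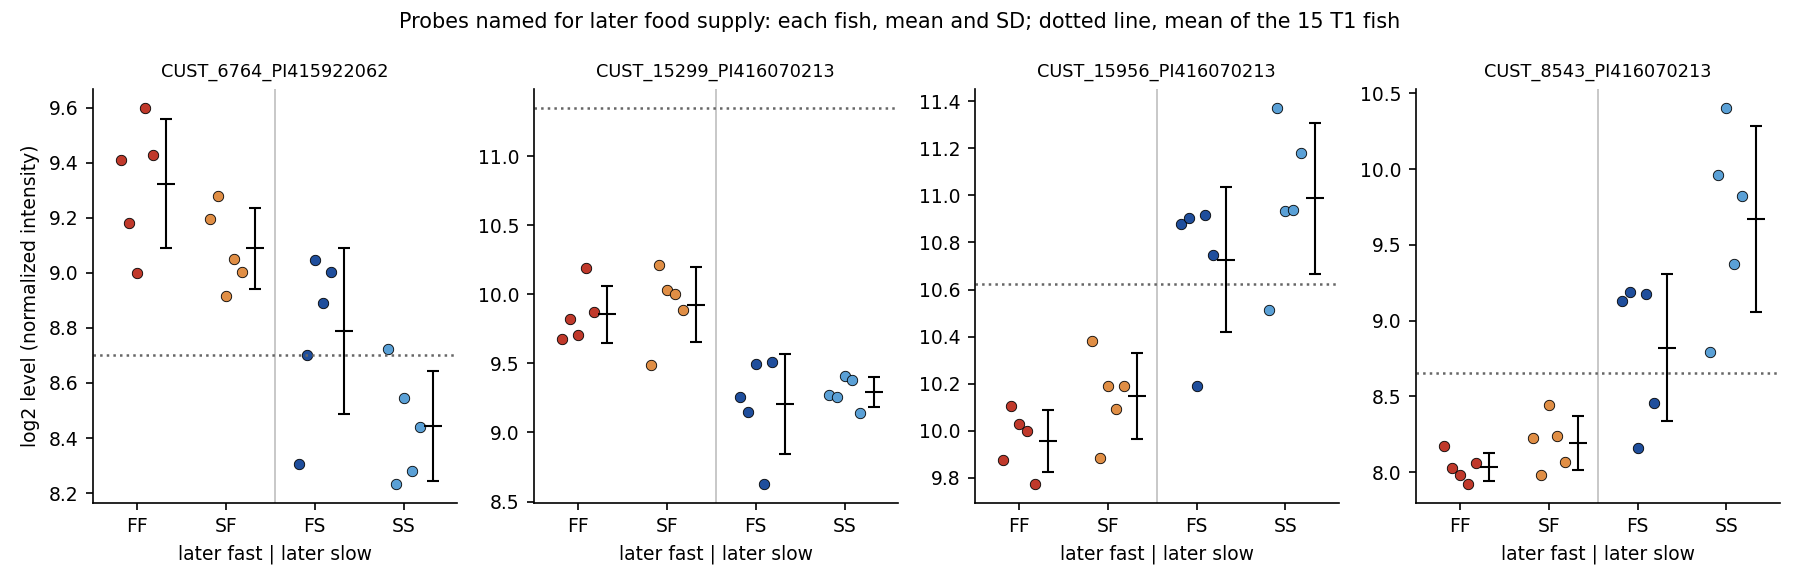
Log2 level of the 4 named probes in each fish (points) by group, with the mean and SD of 5 fish (bars) and the mean of the 15 T1 fish (dotted line). Groups FF and SF (later fast) stand left of FS and SS (later slow). FS3 lies within or next to the later fast fish on CUST_15956_PI416070213 (10.19) and CUST_8543_PI416070213 (8.16).

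The probes of one target provide a technical check. Of 46 targets of the 75 probes with at least 2 probes, 44 (95.7%) had all their probes on the same side of zero, against 76.4% of the 6266 such targets on the array, and both shares rest on the contrast that chose the probes. Of the 83 other probes of these targets, 80 had the sign of the called probe and 62 of those had an unadjusted p under 0.05. Of all probes, 23.4% had such a p in either direction. These counts rest on the same contrast too. Among the 80, signs without FS1, FS2 and FS4 were looked at only for further probes of the named reads. There CUST_15955_PI416070213 and CUST_8542_PI416070213 turned to the opposite sign (0.11 and 0.09), and CUST_8544_PI416070213 kept its sign (-0.10). Contigs made up 35.4% of the targets of the 75 probes and 28.2% of all targets. When the probes were put by mean level into 4 bins of 6050, 4 of the 75 lay in the dimmest bin (0.0661% of it), 19 in the next (0.314%), 30 in the next above (0.496%) and 22 in the brightest (0.364%).

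The T1 gonads were normalized together with the T2 testes but were not in the fit that chose the 75 probes, and they gave these a reference level. Most T1 arrays were scanned on the second scan day, as was 1 T2 array (FF2). FF2 was also the only T2 array on a slide with T1 arrays. Differences between T1 and T2 can therefore hardly be told apart from slide and scan day. The T2 mean lay above the T1 mean at 36 of the 50 higher probes (72%), against 50% of all probes that were higher in later fast fish, and at 17 of the 25 lower probes (68%), against 52.9% of all lower probes. With groups of equal size, a T2 mean above T1 is the same as later slow fish lying nearer to T1 for a higher probe and later fast fish lying nearer for a lower probe. Later slow fish were thus nearer at 58.7% of the 75 and 48.6% of all 24200 probes.

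The effect was then examined within each kind of initial growth. In initially fast fish (FF against FS, fitted alone), 0 of 24200 probes (0%) passed either pair of thresholds in limma. The adjusted p was 0.196 or more throughout, while 5758 probes (23.8%) fell under 0.05 unadjusted. At the thresholds of the methods the count was 2 with the 4 T2 groups in 1 fit, 1185 with all 6 groups and 7269 with array weights. It was 0 or 1 under the other alternatives. In initially slow fish (SF against SS), 0 probes (0%) passed the thresholds of the methods and 21 (0.0868%) the looser ones, 7 (0.0289%) higher and 14 (0.0579%) lower in SF. Here the adjusted p was 0.0353 or more, and 4302 probes (17.8%) fell under 0.05 unadjusted. With control spots kept in the normalization the count at the thresholds of the methods was 46 in initially slow fish, 39 of them higher in SF. It was 67 when SS1 was left out, 6 of them higher in SF. FF and FS differed by 1.5-fold or more at 5300 probes (21.9%), and SF and SS at 1251 (5.17%). Without FS1, FS2 and FS4 the number for FF and FS was 724, below that for SF and SS, and 0 probes passed (smallest adjusted p 0.9999). Fish of FF and SF varied with a median SD of 0.23 and 0.20 over probes, and fish of FS and SS with one of 0.30 and 0.22.

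Across all probes the differences in the 2 kinds of fish, which share no array, showed almost no correlation. Pearson's r across 24200 probes was 0.0043 and Spearman's rho 0.035, and 52.0% of probes had the same sign in both. Probes are not independent replicates, and no test was made. The r was 0.13 without FS1, FS2 and FS4, with 54.9% of probes of the same sign. Both differences reached 1.5-fold in the same direction at 218 probes and in opposite directions at 198, and without those arrays at 110 and 77.

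**Figure D3:**
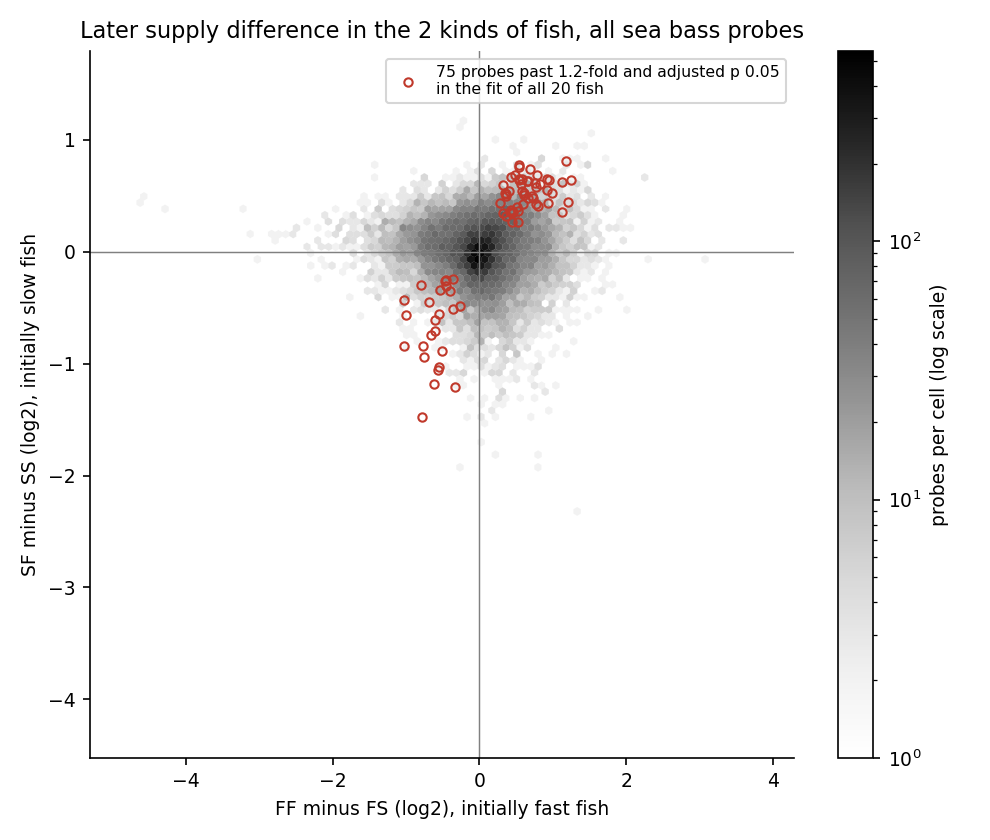
Difference FF minus FS (horizontal) against SF minus SS (vertical), both in log2, for 24200 probes counted in cells (grey, log scale). The 75 probes past the looser thresholds (red rings) have the same sign in both by the way they were chosen, while the cloud as a whole shows r = 0.0043.

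Few probes separated the fish completely. All FF fish lay above all FS fish at 212 probes (0.88%) and below them at 221 (0.917%), of 24096 probes with a value in every array. All SF fish lay above all SS fish at 456 (1.89%) and below them at 529 (2.2%). Both pairs were apart in the same direction at 17 probes, 7 with later fast fish above (0.0291%) and 10 with later fast fish below (0.0415%), and in opposite directions at 3 (0.0125%). Of the 17, 9 were among the 75. All 10 later fast fish lay above all 10 later slow fish at 2 probes (0.0083%) and below them at 1 (0.00415%). With FS3 and FS5 as the only FS fish, which are separated more easily for being fewer, FF lay above FS at 665 probes (2.76%) and below at 728 (3.02%). Both pairs were then apart at 17 probes above (0.0706%), 32 below (0.133%) and 19 in opposite directions (0.0789%), and all later fast fish lay above all later slow fish at 4 (0.0166%) and below them at 11 (0.0457%).

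Whether later food supply acted differently in initially fast and initially slow fish was tested by the contrast (FF minus FS) minus (SF minus SS). At the thresholds of the methods 2 probes (0.00826%) passed and at the looser ones 9 (0.0372%), all with a positive contrast, while 5268 (21.8%) fell under 0.05 unadjusted. The count at the thresholds of the methods was 0 without FS1, FS2 and FS4 and 0 with the slide as a random block or the replicate number as a block. It was 65 without SS1, 10 without SS5, 6 without FS5, and 1 or 2 without any of the other 17 fish. Both probes were bright in SS alone. CUST_5748_PI415922062 (single read cDN35P0003G20.F.ab1) was at 7.02 to 7.30 in FF and 7.12 to 7.61 in SF, against 7.04 to 7.48 in FS and log2 levels of 10.05, 11.70, 11.49, 11.67 and 13.24 in SS. It was not well above background in any FF or FS fish and was so in 2 of 5 SF fish, and SS was at least 21.1-fold brighter than FF and at least 20.8-fold brighter than FS. The adjusted p of the contrast was 0.00257 (limma), and 0.127 without FS1, FS2 and FS4. Its fitted size is not given here, since FF and FS have only an upper bound.

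CUST_4179_PI415922062 (single read cDN30P0006F01.F.ab1) was at 6.84 to 7.14 in FF and 6.97 to 7.24 in SF, against 7.02 to 7.16 in FS and log2 levels of 9.34, 10.85, 10.70, 11.02 and 12.38 in SS. It was not well above background in any FF, SF or FS fish, nor in any T1 fish. SS was at least 13.2-fold brighter than FF, 13.1-fold brighter than SF and 13.7-fold brighter than FS, with an adjusted p for the contrast of 0.00333 (limma), and 0.152 without FS1, FS2 and FS4. Both probes were well above background in every SS fish and in at most 2 fish of any other group. The test of the contrast thus set SS against levels near background. These bounds set SS against the lowest level that was well above background on each dim array, or the probe's own level where that was higher.

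The 10 spike-in probes read control RNA that is mixed in for labelling and does not come from the fish, and they were also highest in SS. Their level relative to the 75th percentile of the array was -2.58 to 1.25 in FF and -1.75 to -0.42 in SF, against -1.75 to 0.50 in FS and 3.08, 4.88, 4.15, 4.32 and 5.56 in SS. SS1 was the lowest and SS5 the highest of the SS fish on both probes and on the spike-in level. The later fast mean was -0.83 and the later slow mean 1.89 (difference of -2.72, exact permutation within initial growth p = 0.00526, two-sided). On the shared slide the spike-in level was -1.75 and -1.73 in SF4 and SF5, against 3.08 and 4.88 in SS1 and SS2. FF and FS had like spike-in levels, with means of -0.57 ± 1.52 and -0.62 ± 1.01 (SD, n = 5 each). Its part in the difference between SF and SS was not tested.

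**Figure D4:**
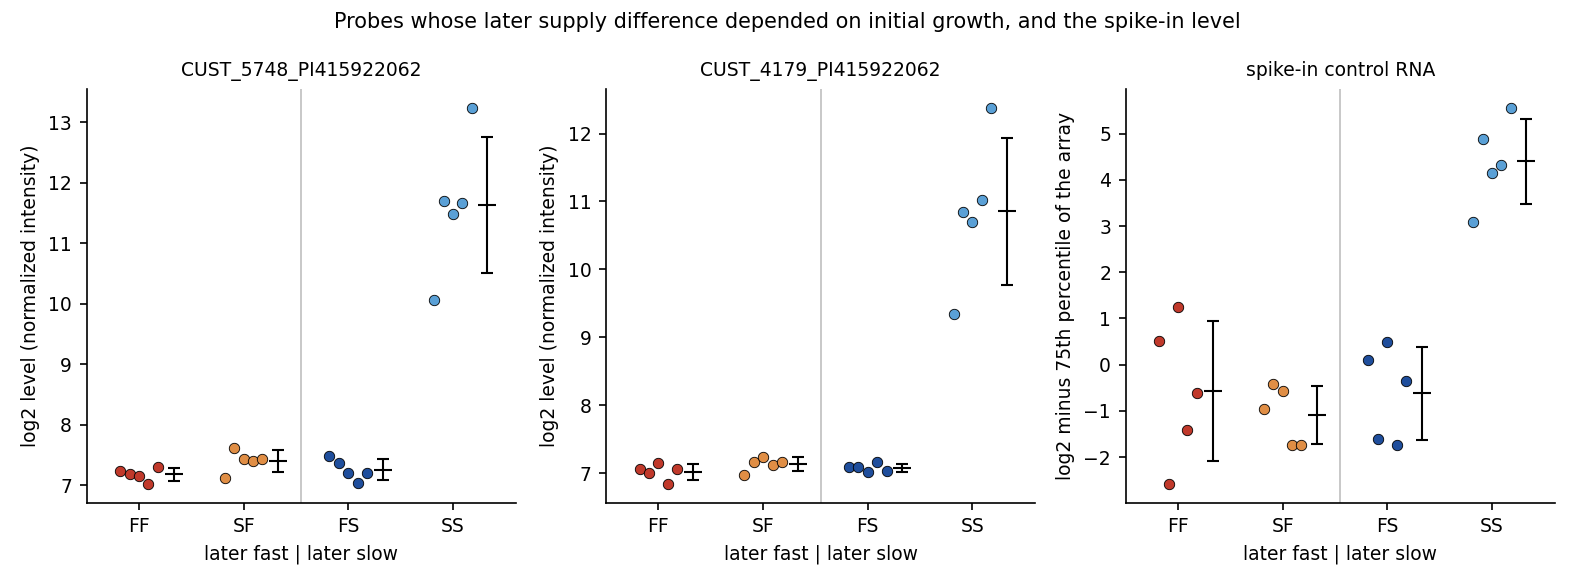
Left and middle, log2 level of the 2 probes called for the contrast (FF minus FS) minus (SF minus SS). Right, level of the spike-in probes relative to the 75th percentile of the array. Each fish is shown, with mean and SD of 5. SS stands alone in each panel, and the spike-in level was -2.58 to 1.25 in FF, SF and FS fish and 3.08 to 5.56 in SS fish.

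The contrast in the negative direction reached no call. CUST_6674_PI415922062 (contig SeabassC-CL4181Contig1) was at 9.20 to 9.42 in FF and 8.88 to 9.27 in FS, and at 9.16 to 9.40 in SF and 7.82 to 8.48 in SS, with a contrast of -0.84 ± 0.16 (SE; adjusted p = 0.0564, limma), and of -0.88 without FS1, FS2 and FS4. SS alone lay lower there. CUST_4229_PI416070213 (contig SeabassC-CL2640Contig1) was at 7.51 to 7.72 in FF and 7.84 to 8.54 in FS, and at 7.59 to 7.90 in SF and 7.41 to 7.64 in SS, with a contrast of -0.87 ± 0.17 (SE; adjusted p = 0.0639, limma), and of -0.51 without FS1, FS2 and FS4. On that probe 4 of the 5 FS fish lay above all other T2 fish, and it was well above background in 2 of 5 FF fish.

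Over the 24096 probes with a value in every array, later food supply took 12.06% of the variation among the 20 testes, initial growth 12.06% and their interaction 11.97%. The other 63.9% lay between fish of the same group, where an even split over degrees of freedom would give each factor 5.26%. In this balanced design a shift of a single group adds alike to both factors and their interaction. These shares, and the distances below, can therefore not be read as separate effects of equal size. Without FS1, FS2 and FS4 the shares were 7.70%, 9.35% and 5.95%, with 74.1% between fish of the same group. The distance between the mean profiles of later fast and later slow fish was 49.995 log2 units over 24096 probes (exact permutation within initial growth, one-sided, p = 0.0477, adjusted over 2 factors 0.0488), and that for initial growth was 49.988 (p = 0.0488). Without FS1, FS2 and FS4 they were 32.3 (exact permutation p = 0.163) and 35.5 (exact permutation p = 0.13). The mean of FF lay 42.0 and that of SF 37.5 from the mean of the other groups, against 85.2 for FS and 53.6 for SS, and the mean of FS3 and FS5 alone lay 37.7 from it.

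Of the first 5 principal components, only the third, with 10.3% of the variation, differed in mean score by later supply. The mean score was -13.9 in later fast and 13.9 in later slow fish (exact permutation within initial growth p = 0.00441, two-sided, adjusted over 5 components 0.022). FF fish scored -39.5 to 21.1 and SF fish -30.3 to -5.0, against -5.8 to 12.4 in FS and -2.9, 27.6, 22.2, 27.1 and 60.8 in SS, so that FF3 (21.1) lay among the SS fish and FS fish overlapped both. The highest scores were those of SS2 to SS5, and SS fish also had a high spike-in level (3.08 to 5.56), whose part in this was not tested. On component 1, which set FS1, FS2 and FS4 apart, the difference by later supply had an exact permutation p of 0.141. Without those fish the smallest adjusted p of the 5 components was 0.148, and with the processed signal scaled to the 75th percentile it was 0.0809. It was 0.0609 to 0.111 when SF1, SS1, SS2, SS3 or SS4 was left out (exact permutation).

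**Figure D5:**
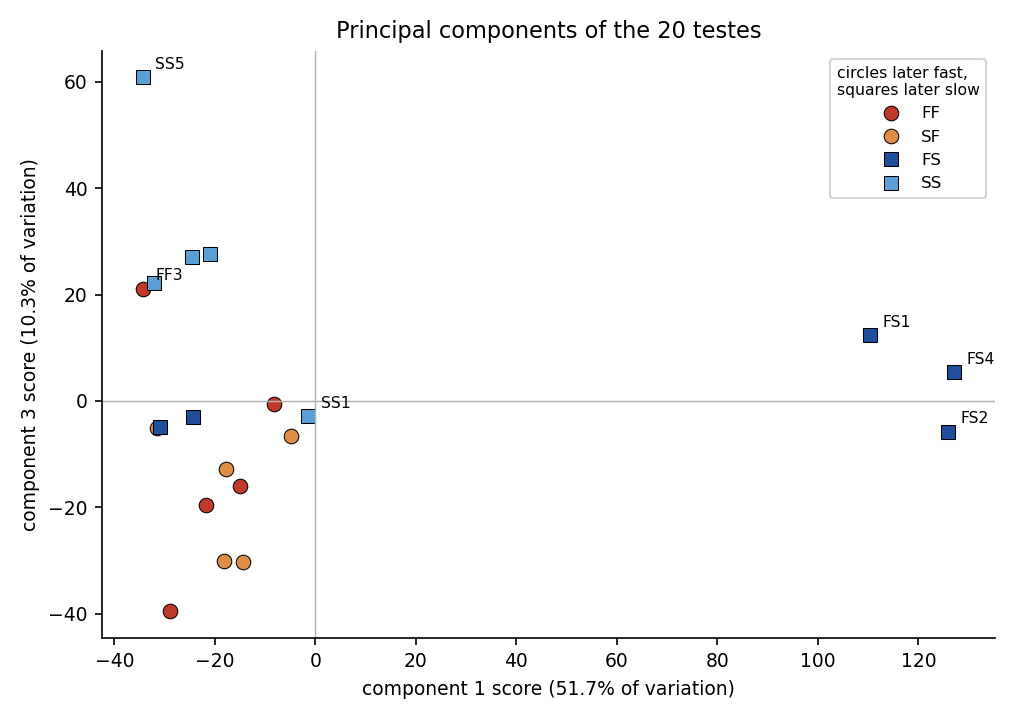
Scores of the 20 testes on principal components 1 (51.7% of the variation) and 3 (10.3%), with circles for later fast fish (FF, SF) and squares for later slow fish (FS, SS). FS1, FS2 and FS4 lie beyond 110 on component 1, and SS2 to SS5 lie between 22.2 and 60.8 on component 3, where FF3 (21.1) is the highest of the later fast fish.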

How the data were processed

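For each 1-colour (Cy3) Agilent array the authors deposited the output of Feature Extraction 10.7.3.1 (version per the file headers), with linear spot and background intensity before any normalization. A second deposited table holds processed log2 values made by the authors, per the methods, by normexp correction and quantile normalization. No genome was used. Here normexp (offset 50, all spots) was applied to median signal and median background, values were taken to log2, quantile normalization was run over 35 arrays on the 43803 sea bass spots, leaving out the 1417 control spots, and the median of unflagged spots gave each probe its level. Of the deposited matrix values, 98.3% lay within 0.1 of these. A filter after the methods (foreground at least 2 times background in at least 50% of the spots of a probe), asked here in at least 50% of the arrays of 1 group, removed none of the 24200 probes. Flagged spots on the T2 arrays (1431) were left out, and no spot was saturated.

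For later supply, limma 3.58.1 in R 4.3.3 (lmFit, eBayes) was fitted with initial growth as a factor and with Benjamini-Hochberg adjustment over all probes, at the methods' thresholds (1.5 and 0.01) and at 1.2 and 0.05. Tables were read with the data.table package, version 1.17.8. Distances, component scores and spike-in levels (10 probes, 320 spots) were tested by exact permutation of later supply within initial growth (63504 divisions, smallest possible p 3.1e-05 for the distance). Simulated data, with known changes in 200 of 24096 probes and independent noise but no effect of initial growth, were used to test the fit. Arrays have no counting depth, so the number of fish limits the precision, and p-values measure the spread between fish of 1 tank per group.

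Named by rule were 2 higher and 2 lower probes for later supply (called, or else with the smallest adjusted p at 1.5-fold or more). These were well above background in at least 3 of 5 fish of a group at each later level. They were also of one sign in both kinds of fish. For the interaction contrast, 2 positive and 2 negative probes were named. The named probes were not the largest changes. An adjusted p of 0.0437 was shared by many probes, and CUST_85_PI416070213, not named, changed by 0.99. The 2 negative probes were not the lowest contrasts, since a further probe of the read of CUST_15956_PI416070213 was at -1.27. Lists of genes and cell markers could not be used without gene names. The comparison, lists and rules were chosen with earlier results of these data known. Replicate numbers are those of the sample titles. Alternatives were other background and normalization choices, filters on dim probes, 1 value per target, array weights, slide or replicate number as a block, other sets of arrays in the fit and each array left out. Figures were drawn with matplotlib 3.10.9 (Python 3.11.15).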

Additional observations from a re-analysis of the deposited data

Results flagged for a closer look

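CUST_5748_PI415922062 and CUST_4179_PI415922062 were called for the contrast (FF minus FS) minus (SF minus SS), with fitted sizes of 4.16 and 3.67 on the log2 scale (adjusted p = 0.00257 and 0.00333, limma). Both probes were well above background in SS and in at most 2 fish of another group, so that these sizes depend on the level given to dim spots and were 7.96 and 9.01 with the processed signal. Without FS1, FS2 and FS4 neither probe passed (adjusted p = 0.127 and 0.152, limma), although all FS fish were dim on both (7.04 to 7.48 and 7.02 to 7.16). In that fit 1428 probes fell under 0.05 unadjusted, against 5268 in the fit of all 20 fish. The spike-in level was high in the same SS fish (3.08 to 5.56). Of 60 groups of 5 fish looked at for a single distant fish, 3 had one, and chance gives about 1 in 20. FS3 had a log2 level of 10.19 on CUST_15956_PI416070213, against 10.75 to 10.91 in the other FS fish. On CUST_6674_PI415922062, FS1 was at 8.88, against 9.18 to 9.27 in the other FS fish, and SS2 was at 7.82, against 8.36 to 8.48 in the other SS fish.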

How the results depend on the processing

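At the methods' thresholds the count for later supply was 0 under all alternatives run except array weights (52), all 6 groups in 1 fit (98) and the 4 group means (6), and it was 0 to 1 when each fish was left out (1 without FS3 or SS1). At 1.2-fold and 0.05 it was 75, and there it was 119 with normexp on the foreground alone, 366 with control spots kept, 377 in the authors' matrix, 1134 with array weights, 1187 with all 6 groups, 215 with the 4 group means, 39 with later supply alone, 4 (none higher) for probes well above background in all 4 groups, and 0 with the processed signal, with the slide as a block, random or fixed, within the shared slide, and without FS1, FS2 and FS4. With the slide as a fixed block, later supply was estimated from SF4, SF5, SS1 and SS2 alone, as within the shared slide. Both settings thus gave the same changes (0.548 on CUST_6764_PI415922062) and are not separate checks, nor a test of all fish adjusted for slide. Leaving out each fish gave 1 to 1347. All 75 probes kept their sign under every alternative that tested them. They were chosen by this contrast in the same fish, so the kept signs support nothing. On the slide of SF1 to SF3 and FS5, 68 of the 75 had that sign. For the interaction the count of 2 became 23 with the processed signal, 6 with offset 0, 29 with all 6 groups and 6254 with array weights, 9 at the looser thresholds, and 0 in probes well above background in all 4 groups, with the slide as a random block, and without FS1, FS2 and FS4, and it was 1 to 65 with a fish left out (65 without SS1). For FF vs. FS the count of 0 became 7269 with array weights, 1185 with all 6 groups and 2 with the 4 T2 groups in 1 fit, and it was 0 to 1 with a fish left out (1 without FF4 or FS5). For SF vs. SS the count of 0 became 29 with the processed signal, 2 with offset 0, 46 with control spots kept, 51 in the authors' matrix, 115 with array weights, 64 with all 6 groups, 60 with the 4 T2 groups and 21 at the looser thresholds, and it was 0 to 67 with a fish left out (67 without SS1). The direction of these calls also changed. Higher in SF were 39 of the 46 with control spots kept and 43 of the 51 in the authors' matrix. Against this stood 0 of the 29 with the processed signal, 21 of the 115 with array weights, 1 of the 64 with all 6 groups and 1 of the 60 with the 4 T2 groups. Array weights were 0.202 to 0.257 for FS1, FS2 and FS4, against 0.632 to 2.91 for the others. Without those arrays FF vs. FS had 0 calls. The cause of these changes was not tested.

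With the replicate number as a block the counts were 0 for later supply (58 at the looser thresholds, 41 of them among the 75) and 0 for the interaction. The correlation of deviations between same-numbered fish was -0.40 to 0.78 (mean 0.11), against -0.75 to 0.64 (mean -0.03) for the other pairs. In all, 7 of 20 fish correlated best with their own number, where 30 pairs shared a number and 120 did not. Whether the numbers pair the fish was not tested.

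The distance for later supply was 48.0 (exact permutation p = 0.0526) for probes well above background in all 4 groups, 33.6 (p = 0.0511) with 1 value per target, 32.3 (p = 0.163) without FS1, FS2 and FS4, and 43.9 to 59.5 (p of 0.0156 to 0.101) with a fish left out. For initial growth it was 49.7 with control spots kept (exact permutation p = 0.0531), 49.8 in the authors' matrix (p = 0.0538), 49.7 and 47.6 under the filters on dim probes (p = 0.0505 and 0.0607), 33.6 per target (p = 0.0537), 35.5 without FS1, FS2 and FS4 (p = 0.13), and 44.4 to 59.4 with a fish left out (p of 0.018 to 0.0927). The smallest adjusted p of the components was 0.148 without FS1, FS2 and FS4, 0.0809 with the processed signal and 0.00126 to 0.111 with a fish left out. Probes apart in both pairs numbered 8 with the processed signal, against 17, and 50 of 24133 without FS1, FS2 and FS4. The interaction could not be fitted with the slide as a fixed block, nor could FF vs. FS, since no slide held both groups.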
